A study of Mus musculus with 22 samples.

Results

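The Id family (Id1, Id2, Id3 and Id4) and the inhibitory Smad genes (Smad6 and Smad7) were followed through the bulk RNA sequencing of mouse renal capsules, the thin connective tissue sheath around the kidney. These 6 genes, of 52636 in the count files, were taken as 2 small gene families, because Id3 counts were higher in RCAM libraries of aged than of young animals. The values of aged and young RCAMs therefore chose the set, and in that contrast the 6 genes are described without a test. The groups were RCAM libraries of aged and of young mice (4 libraries each), macrophages of the renal capsule and of the kidney (4 each), and whole renal capsule tissue of aged and of young mice (3 each). RCAM is not spelled out in the labels. Its cell type is entered as whole tissue, although the description of the series has dissected capsules passing through a macrophage sort by FACS. Every sample is Mus musculus with no treatment. The strain, sex and ages in weeks or months, and any age of the capsule and kidney macrophages, are not given in the labels. Whether libraries of a group came from separate animals is not stated, and p-values therefore reflect library-to-library spread alone, which may be technical.

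Id proteins are small helix-loop-helix factors without a DNA-binding region. They pair with E proteins, the broadly expressed basic helix-loop-helix activators, and keep them off DNA. Bone morphogenetic proteins (BMPs) act through type I and type II receptors that phosphorylate SMAD1, SMAD5 and SMAD9, and Id1, Id2 and Id3 are among the most widely used transcriptional readouts of that signal. Smad6 and Smad7 are induced by the same pathway and close a negative feedback loop: Smad6 acts mainly on BMP signalling, and Smad7 on both BMP and TGF-beta receptors. In the mouse immune system, Id3 is known for its requirement in Kupffer cells of the liver, and Id2 is known for its requirement in natural killer cells and some dendritic cells.

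In the GENCODE M21 annotation of GRCm38, Id1 (ENSMUSG00000042745) lies on chromosome 2 from 152736251 to 152737410 on the plus strand, and Id2 (ENSMUSG00000020644) on chromosome 12 from 25093799 to 25097140 on the minus strand. Id3 (ENSMUSG00000007872) lies on chromosome 4 from 136143497 to 136145755 on the plus strand, and Id4 (ENSMUSG00000021379) on chromosome 13 from 48261228 to 48266026 on the plus strand. Smad6 (ENSMUSG00000036867) lies on chromosome 9 from 63953076 to 64022059 on the minus strand, and Smad7 (ENSMUSG00000025880) on chromosome 18 from 75367529 to 75395935 on the plus strand. The counts cover whole genes and do not separate exons, introns or isoforms. Only Id4 shares exonic sequence with annotated genes of the opposite strand, A330033J07Rik and Gm49291. A330033J07Rik had 0 to 3 counts per library and Gm49291 had 0 in every library.

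Sequencing gave 45.0 to 51.8 M (1e6) counts per aged RCAM library, 49.8 to 54.4 M per young RCAM library, 39.3 to 53.4 M per capsule macrophage library, 31.8 to 49.9 M per kidney macrophage library, 27.1 to 43.2 M per aged capsule library and 20.6 to 22.2 M per young capsule library. Levels are counts per 1e6 counts of the library (CPM). A list of 11 macrophage genes summed to 36274 to 40362 CPM in aged RCAMs, against 36198 to 38633 CPM in young RCAMs. Capsule macrophages stood at 34539 to 38220 CPM and kidney macrophages at 26173 to 28697 CPM. That list summed to 4163 to 10237 CPM in aged capsule tissue and 2026 to 4048 CPM in young capsule tissue, so the RCAM libraries had the macrophage level of sorted cells, against their label. Capsule tissue replicate 2 stood apart at both ages through adrenal cortex genes, which summed to 5994 CPM in the aged and 181 CPM in the young library, against 3.47 to 13.6 CPM in the other tissue libraries. Results of capsule tissue that change without these 2 libraries are given with and without them. The labels name a kit for 100 ng and a kit for 2 ng of total RNA without saying which sample had which, so kit and sample type cannot be told apart.

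The stretch before the RefSeq start of transcription is shown because Id4 and Smad6 separated aged from young RCAMs in the values below, as did Id3 and Smad7, while Id2 did not. RefSeq promoters (GRCm38.p6) were used for 4 of the 6 genes, Id2, Id3, Id4 and Smad6, and the windows of Id1 and Smad7 are not used here. Only bases outside every GENCODE M21 exon of the gene are printed, which leaves 89 of 250 bases for Id2, 250 for Id4, 250 for Smad6 and 0 for Id3, whose RefSeq window lies inside the first exon of a longer transcript. The Id2 window also lies within the annotated span of its gene. Its printed bases are therefore not upstream of every Id2 transcript. Each is written 5′ to 3′ on the strand of the gene, and capitals mark matches on either strand to GGCGCC, a GC-rich SMAD1/5 motif, or to GCGNGGGCG, a motif of EGR factors.
Id2, chr12:25096254-25096342, minus strand: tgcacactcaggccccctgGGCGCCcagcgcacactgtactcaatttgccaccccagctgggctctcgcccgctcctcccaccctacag
Id4, chr13:48260866-48261115, plus strand: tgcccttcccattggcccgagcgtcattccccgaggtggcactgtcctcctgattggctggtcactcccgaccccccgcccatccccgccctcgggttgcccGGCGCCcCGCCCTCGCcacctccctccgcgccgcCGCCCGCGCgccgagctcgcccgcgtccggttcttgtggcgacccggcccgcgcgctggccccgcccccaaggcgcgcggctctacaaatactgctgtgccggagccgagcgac
Smad6, chr9:64022060-64022309, minus strand: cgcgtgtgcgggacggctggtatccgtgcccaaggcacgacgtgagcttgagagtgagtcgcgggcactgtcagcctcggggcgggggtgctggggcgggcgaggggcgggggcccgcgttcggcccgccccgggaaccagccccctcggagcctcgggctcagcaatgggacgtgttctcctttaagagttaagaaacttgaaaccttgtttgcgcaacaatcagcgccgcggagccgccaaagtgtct
All 4 windows of 250 bases were GC-rich, with 62.8% G and C in Id2, 62.8% in Id3, 75.6% in Id4 and 66.8% in Smad6, against a median of 52.4% over 32851 promoter windows. GGCGCC, which reads the same on both strands, was present once in Id2 at -231 and once in Id4 at -148, counted from the start, and in 9.59% of all windows. GCGNGGGCG or its reverse complement was present in Id4 at -141 and -114 and in 4.70% of all windows. These 2 motifs did not overlap each other in Id4. CAGAC, the SMAD box, or its reverse complement GTCTG was present in the Id3 window at -167 and -68 and in 42.2% of all windows. Smad6 held none of the 3 motifs in its window. These are matches of letters and not measured binding sites.

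Id3 was the gene that chose the set, and its level separated the RCAM libraries by age. Id3 stood at 37.8, 24.5, 28.1 and 30.4 CPM in the 4 aged RCAM libraries, against 6.27, 7.88, 6.94 and 6.37 CPM in the 4 young ones. Every aged library lay above every young library, with means of 30.2 ± 5.63 CPM in aged and 6.86 ± 0.742 CPM in young RCAMs (SD, n = 4 each) and a log2 fold change of 2.11. Leaving out each library in turn moved that log2 fold change between 2.00 and 2.20.

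Id4, the Id gene best known from the nervous system, was low in aged RCAMs and near the limit of detection in young ones. It had 35, 58, 37 and 47 counts in the aged RCAM libraries, against 6, 1, 1 and 0 counts in the young ones. In CPM these were 0.748, 1.12, 0.823 and 1.02 in aged and 0.110, 0.0201, 0.0196 and 0 in young RCAMs, where 3 counts are worth 0.0551 to 0.0602 CPM. All aged libraries lay above all young ones. The counts summed to 177 in aged and 8 in young RCAMs. Id4 passed the filter on low counts only through the aged libraries, and its fitted log2 fold change of 4.48 stood at 5.89 without young replicate 1, which held 6 of the 8 young counts.

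Smad6 had 1.97, 1.31, 2.47 and 4.38 CPM in aged RCAMs, against 0.864, 0.602, 0.763 and 0.197 CPM in young RCAMs. The groups did not overlap, but both spread widely, with a coefficient of variation of 52.1% in aged and 48.4% in young libraries. Smad7 had 3.55, 4.42, 3.40 and 3.85 CPM in aged RCAMs, against 2.57, 1.40, 1.47 and 1.47 CPM in young RCAMs. Its groups did not overlap either, and young replicate 1 stood apart from the 3 other young libraries. Their log2 fold changes were 2.02 for Smad6 and 1.10 for Smad7. The ratio of the mean in aged to that in young RCAMs was 4.18 for Smad6 and 2.20 for Smad7, and the difference between the 2 ratios was not tested.

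Id1 and Id2 overlapped between the ages. Id1, the most commonly used BMP readout, had 2.10, 3.80, 4.07 and 3.66 CPM in aged RCAMs, against 2.59, 2.33, 3.11 and 1.85 CPM in young RCAMs (log2 fold change 0.45). Id2 had 93.8, 87.3, 71.8 and 132 CPM in aged RCAMs, against 74.9, 121, 96.9 and 82.7 CPM in young RCAMs (log2 fold change 0.01). In all, 4 of the 6 genes had every aged library above every young one and none the reverse. Over all 15182 genes tested, 7.55% had every aged library above and 3.98% every aged library below, and because the set was chosen on this contrast nothing is read from the share.

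**Figure D1:**
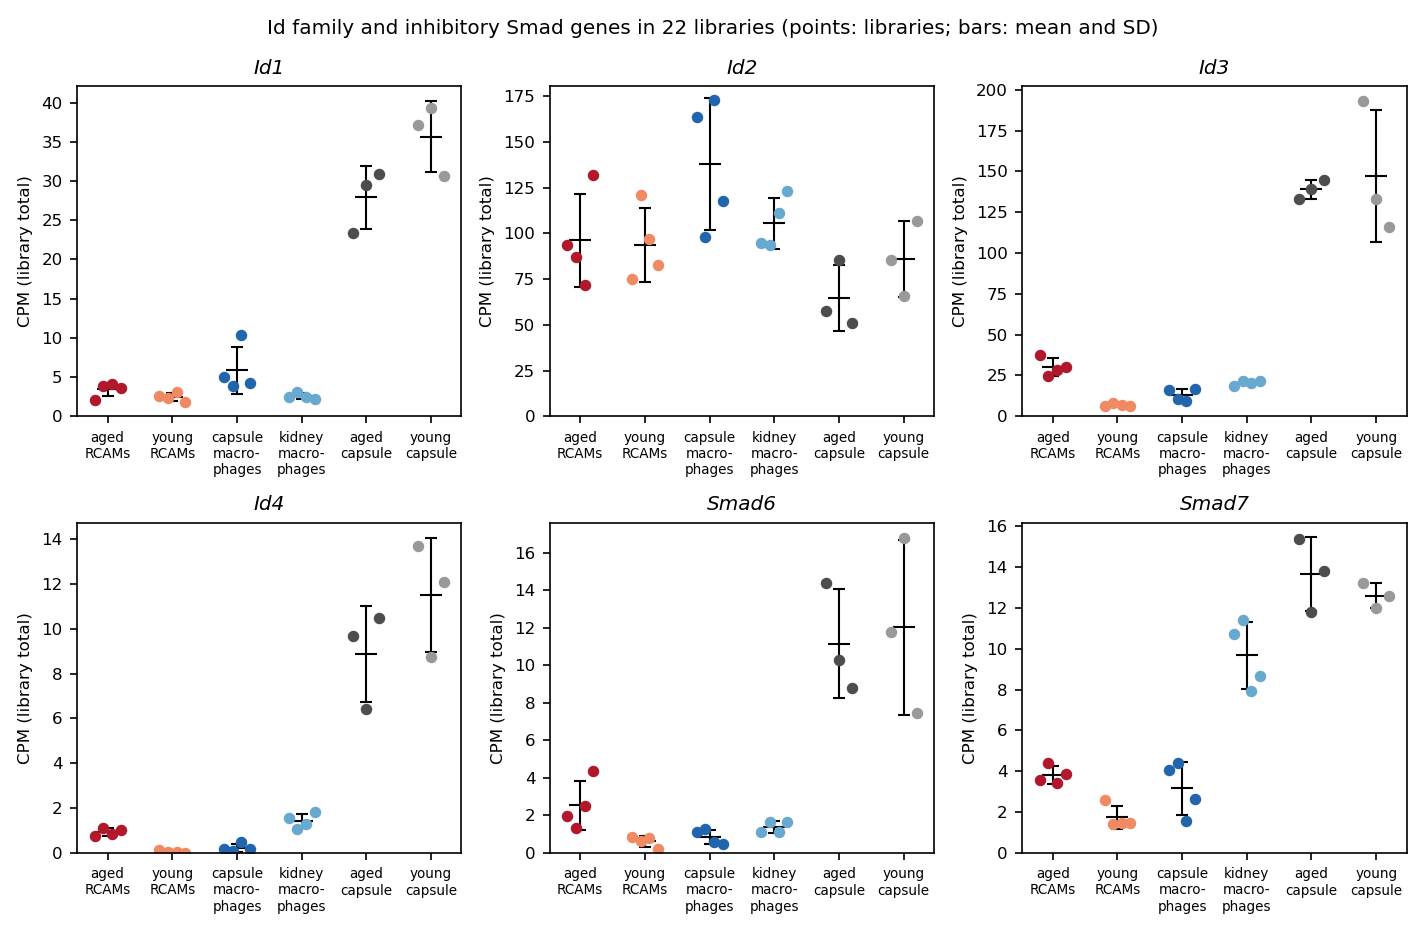
Level of each of the 6 genes (CPM, linear axes that start at 0 and differ between panels) in all 22 libraries; points are libraries, bars the mean and SD of a group. Id3, Id4, Smad6 and Smad7 were above all young RCAM libraries in every aged RCAM library, and tissue was the highest sample type for every gene but Id2.

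Shares within the Id family carry the difference in Id3 that chose the set and are given as a description, not as a further difference between the ages. Per kb of exon, which makes genes comparable, Id2 was at 39.5 ± 10.6 CPM per kb in aged and 38.6 ± 8.39 in young RCAMs (SD, n = 4 each), and Id3 at 16.9 ± 3.14 in aged and 3.83 ± 0.414 in young RCAMs. Id2 made up 65.7% ± 5.53 of the summed Id1 to Id4 level in aged RCAMs and 86.4% ± 1.84 in young RCAMs. Id3 made up 28.7% ± 5.37 in aged and 8.72% ± 0.779 in young RCAMs. The share of Id3 in aged RCAMs, 22.7 to 34.3%, began just above that in kidney macrophages, 18.5 to 22.6%. It uses the aged RCAM values that chose the set, so nothing is read from it. Tissue had another order, with Id3 at 59.6% ± 3.47 in aged and 53.8% ± 6.82 in young capsule (n = 3 each), and Id2 at 20.2% ± 4.56 in aged and 23.7% ± 7.01 in young capsule. Id4 was at most 2.28% of the family in any library.

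**Figure D2:**
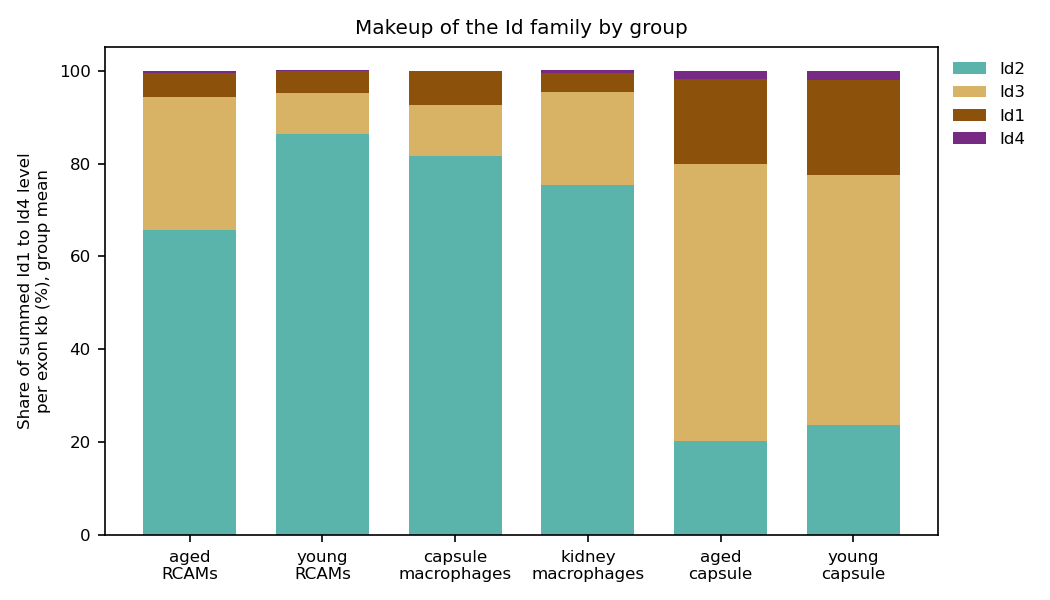
Mean share of Id1, Id2, Id3 and Id4 in their summed level per exon kb (%), by group. Id2 was the largest part in all 4 groups of sorted or RCAM libraries, and Id3 the largest part in aged and young capsule tissue.

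Sums of several marker lists of other cell types were higher in the aged RCAM libraries, and others overlapped. Beside the counts of genes given here, 7.55% of the genes that passed the filter on low counts had every aged library above every young one. The counts run over all genes of a list, also those too low to be tested, so the 2 bases differ. A list of 8 fibroblast genes summed to 1276, 929, 2274 and 2646 CPM in aged RCAM replicates 1 to 4, against 639, 544, 748 and 739 CPM in young ones, with no overlap between the ages and 4 of the 8 genes higher in every aged library. A list of 8 mural and smooth muscle genes summed to 15.4 to 47.7 CPM in aged and 5.60 to 11.9 CPM in young RCAMs, with 6 of 8 genes higher in every aged library, and Rgs5, a pericyte marker, was at 0 counts in young RCAMs. Endothelial genes summed to 30.6 to 51.7 CPM in aged and 13.1 to 23.9 CPM in young RCAMs, with 1 of 10 genes not overlapping. Adipocyte genes summed to 41.5 to 86.5 CPM in aged and 21.1 to 38.6 CPM in young RCAMs (2 of 6 genes not overlapping). B cell genes summed to 23.2 to 31.6 CPM in aged and 9.33 to 18.1 CPM in young RCAMs (2 of 5 genes not overlapping). Immediate early and heat shock genes, which also respond to tissue dissociation, summed to 7522 to 10878 CPM in aged and 5464 to 7835 CPM in young RCAMs. These sums overlapped, while 4 of 16 genes did not. Dendritic cell genes summed to 405 to 509 CPM in aged and 345 to 401 CPM in young RCAMs, with 0 genes not overlapping. Kidney tubule genes overlapped, at 32.9 to 90.7 CPM in aged and 33.1 to 102 CPM in young RCAMs. The sums of monocyte and neutrophil, T and NK cell, proliferation, adrenal cortex and erythroid genes overlapped as well. The part of these cell types in the values of the 6 genes was not tested. In bulk libraries, fewer cells of a type and less RNA per cell cannot be told apart.

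Across the 4 aged RCAM libraries the order of Smad6 was that of the fibroblast sum, from 1.31 CPM in replicate 2 to 4.38 CPM in replicate 4. Id3 did not have that order: its highest value, 37.8 CPM, was in replicate 1, whose fibroblast sum of 1276 CPM was second lowest. Id4 was highest in replicate 2, at 1.12 CPM, where the fibroblast sum was lowest at 929 CPM. Across the 4 young RCAM libraries the order of Smad6 was not that of the fibroblast sum. Smad6 was lowest there in replicate 4, at 0.197 CPM, while the sum was lowest in replicate 2. Capsule macrophages had fibroblast sums of 616 to 903 CPM, close to the 544 to 748 CPM of young RCAMs, and Id3 at 9.58 to 16.5 CPM. Kidney macrophages had fibroblast sums of 11.5 to 17.2 CPM and Id3 at 18.5 to 21.7 CPM. Their endothelial sums were 43.8 to 58.0 CPM and their kidney tubule sums 619 to 943 CPM. These are orders of 4 libraries a group and are given without a correlation. The part of any cell type in these levels was not tested.

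**Figure D3:**
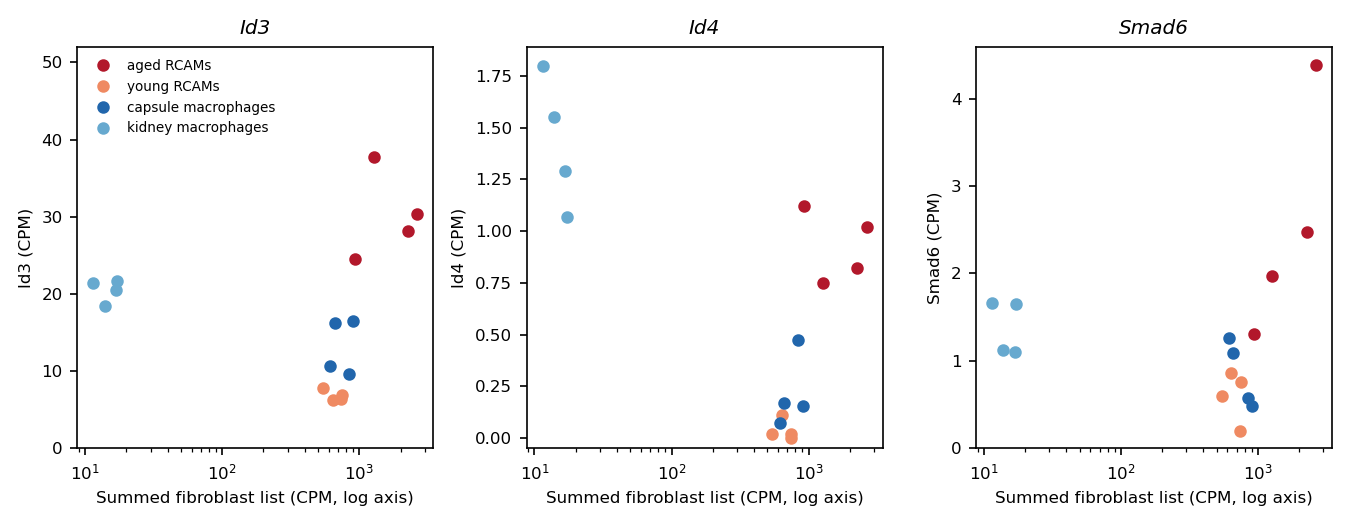
Id3, Id4 and Smad6 (CPM) against the summed level of 8 fibroblast genes (CPM, log axis) in the 16 RCAM and macrophage libraries. Kidney macrophages had Id3 at 18.5 to 21.7 CPM with fibroblast sums of 11.5 to 17.2 CPM. Among aged RCAM libraries the order of Smad6 was that of the fibroblast sum, and the order of Id3 was not. Among young RCAM libraries the order of Smad6 was not that of the sum. The part of fibroblasts in these levels was not tested.

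Setting RCAMs against whole capsule of the same age label, aged or young, asked where these genes stood in the sheath as a whole. Id1, Id3, Id4, Smad6 and Smad7 were lower in RCAMs than in tissue at both ages, while Id2 was not. In young samples, Id3 averaged 6.86 ± 0.742 CPM in RCAMs (SD, n = 4) and 148 ± 40.7 CPM in tissue (n = 3), with a log2 fold change of -4.16 ± 0.19 (SE; edgeR quasi-likelihood test, adjusted p = 1.07e-06). Young RCAMs were also lower in Id1 (-3.59 ± 0.21, adjusted p = 2.22e-06), Smad6 (-4.04 ± 0.51, adjusted p = 0.000141) and Smad7 (-2.59 ± 0.29, adjusted p = 7.36e-05). Id4 had the 6, 1, 1 and 0 counts given above in young RCAMs, against 282, 186 and 269 counts in young tissue, and passed the filter on low counts only through the tissue libraries, so it had to differ in this test. Its fitted log2 fold change was -7.84 (-9.16 without young RCAM replicate 1), and with no filter on any gene its adjusted p was 3.96e-06. Id2 averaged 94.0 ± 20.4 CPM in young RCAMs and 86.0 ± 20.5 CPM in young tissue and did not pass the threshold (0.39 ± 0.21, adjusted p = 0.12), but did without young capsule replicate 3 (0.59, adjusted p = 0.0351). Apart from Id4, 4 of 5 genes were lower in young RCAMs, where 40.6% of all 17491 genes tested were lower and 35.2% higher.

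In aged samples, Id3 averaged 30.2 ± 5.63 CPM in RCAMs and 139 ± 6.22 CPM in tissue (log2 fold change -1.89 ± 0.15, adjusted p = 1.32e-05). Smad6 averaged 2.53 ± 1.32 CPM in aged RCAMs and 11.2 ± 2.92 CPM in aged tissue (-1.82 ± 0.40, adjusted p = 0.00329). Smad7 averaged 3.81 ± 0.451 CPM in aged RCAMs and 13.7 ± 1.80 CPM in aged tissue (-1.52 ± 0.20, adjusted p = 0.000219). Aged RCAMs were lower in Id1 as well (-2.71 ± 0.27, adjusted p = 3.86e-05) and in Id4 (-2.92 ± 0.30, adjusted p = 4.85e-05). Id2 was higher in aged RCAMs, at 96.3 ± 25.8 CPM, against 64.7 ± 18.2 CPM in aged tissue (0.89 ± 0.25, adjusted p = 0.0121), although the library ranges overlapped. In aged samples 5 of 6 genes were lower, where 38.5% of the 17595 genes tested were lower and 32.2% higher.

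As a percent of the mean of tissue of the same age label, Id3 in RCAMs stood at 21.7% in aged and 4.65% in young animals. Tissue means of Id3 were close, at 139 CPM in aged and 148 CPM in young, so this gap carries the contrast that chose the set. Gaps between the ages in these percents are a description and no further result. Smad6 stood at 22.7% in aged and 5.04% in young RCAMs, and Smad7 at 27.8% in aged and 13.7% in young. Id1 stood at 12.2% in aged and 6.93% in young RCAMs, and Id4 at 10.5% in aged and 0.325% in young. The fibroblast sum stood at 16.5% in aged RCAMs, with libraries from 8.59 to 24.5%, and at 6.13% in young RCAMs, from 4.99 to 6.86%. Mural genes stood at 2.87% in aged and 0.998% in young RCAMs, and endothelial genes at 3.87% in aged and 2.51% in young. All 4 aged Id3 values, 17.6 to 27.2%, lay above the mural, endothelial and kidney tubule ones (tubule 5.43 to 15.0%). They overlapped the fibroblast range and lay below the B cell range of 37.3 to 50.7%. In young RCAMs, Id3 at 4.25 to 5.34% also overlapped the fibroblast range. The part of any of these cell types in the levels of the 6 genes was not tested.

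**Figure D4:**
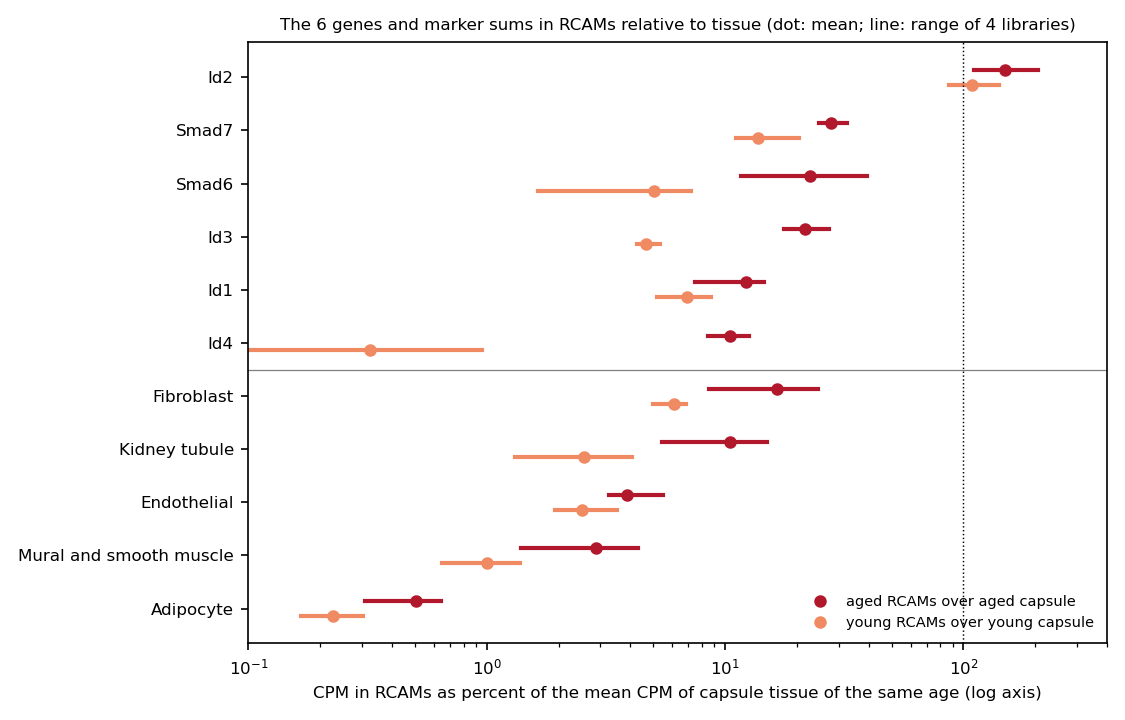
The 6 genes and 5 marker sums in RCAM libraries as percent of the mean CPM of capsule tissue of the same age label (log axis). Dots are means and lines the range of 4 libraries. The line of Id4 in young RCAMs starts at 0, outside the axis. Id2 alone lay near or above 100%. Id3 lay at 21.7% in aged and 4.65% in young RCAMs, a gap that carries the contrast that chose the set.

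Capsule macrophages were set against kidney macrophages in a comparison of site that the choice of the set did not use and in which 55.4% of all 15701 genes tested passed the threshold. Of the 5 genes other than Id4, 3 passed, a share close to that of all genes: capsule macrophages were higher in Id1 and Id2 and lower in Smad7. Id1 had 5.02, 3.90, 10.3 and 4.27 CPM in capsule macrophages, against 2.47, 3.13, 2.48 and 2.25 CPM in kidney macrophages. Every capsule library lay above every kidney library, with a log2 fold change of 1.39 ± 0.33 (SE; edgeR quasi-likelihood test, adjusted p = 0.00425), and of 0.99 without capsule replicate 3 (adjusted p = 0.00636). Id2 had 164, 97.9, 173 and 118 CPM in capsule macrophages, against 94.9, 93.8, 111 and 123 CPM in kidney macrophages. It passed the threshold with overlapping groups (0.60 ± 0.18, adjusted p = 0.0154).

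Smad7 had 4.05, 4.39, 1.55 and 2.62 CPM in capsule macrophages, against 10.7, 11.4, 7.91 and 8.68 CPM in kidney macrophages. All capsule libraries lay below all kidney libraries (log2 fold change -1.41 ± 0.31, adjusted p = 0.00323). Id4 had 9, 3, 22 and 6 counts in capsule macrophages, against 71, 46, 41 and 90 counts in kidney macrophages. It passed the filter on low counts only through the kidney libraries, so it had to differ in this test. Its fitted log2 fold change was -2.49 (-3.18 without capsule replicate 3), and with no filter on any gene its adjusted p was 0.00363. Id3 had 16.2, 10.7, 9.58 and 16.5 CPM in capsule macrophages, against 18.5, 21.7, 20.5 and 21.4 CPM in kidney macrophages. All 4 capsule libraries were below the kidney ones, yet the test did not pass the threshold (-0.42 ± 0.20, adjusted p = 0.0947) unless capsule replicate 1 (-0.53, adjusted p = 0.0486) or 4 (-0.54, adjusted p = 0.0448) was left out. Smad6 overlapped, at 0.852 ± 0.378 CPM in capsule and 1.38 ± 0.316 CPM in kidney macrophages (-0.49 ± 0.42, adjusted p = 0.337).

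By direction, 27.3% of all genes tested were higher and 28.2% lower in capsule macrophages. Library ranges lay wholly above in 18.9% of genes and in 1 of the 6, Id1, and wholly below in 35.1% of genes and in 3 of the 6, Id3, Id4 and Smad7. Markers of other cells differed as well: fibroblast genes summed to 616 to 903 CPM in capsule and 11.5 to 17.2 CPM in kidney macrophages, and kidney tubule genes to 8.77 to 63.8 CPM in capsule and 619 to 943 CPM in kidney macrophages. Endothelial genes overlapped, at 21.4 to 51.4 CPM in capsule and 43.8 to 58.0 CPM in kidney macrophages. Their part in the levels of Id1, Id4 and Smad7 was not tested.

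Whole capsule tissue gave the same age contrast in samples that the choice of the set did not use, and none of the 6 genes passed the threshold there. Id3 had 133, 139 and 145 CPM in aged capsule, against 193, 133 and 116 CPM in young capsule, so the young libraries spread on both sides of the aged ones. Its log2 fold change was -0.19 ± 0.22 (edgeR, adjusted p = 0.656), and 0.02 without young replicate 1. The largest differences were Id2 at -0.52 ± 0.25 (adjusted p = 0.27), Id4 at -0.49 ± 0.27 (adjusted p = 0.327) and Id1 at -0.46 ± 0.20 (adjusted p = 0.225). Id1 had 23.3, 29.5 and 30.9 CPM in aged capsule, against 37.1, 39.3 and 30.6 CPM in young capsule. Smad7, at 13.7 ± 1.80 CPM in aged and 12.6 ± 0.568 CPM in young capsule, gave a log2 fold change of 0.00 ± 0.19 (adjusted p = 0.996), and Smad6 gave -0.24 ± 0.33 (adjusted p = 0.708). Without replicate 2 of both ages Smad6 stood at 0.17 and Id2 at -0.93 (adjusted p = 0.852 for Smad6 and 0.0789 for Id2).

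All 6 genes overlapped between the ages in tissue, and edgeR, DESeq2 and limma-voom each called 0 of them, with 0 at an unadjusted p under 0.05. Over all genes, 0.239% of 16350 passed the threshold by edgeR, which is 39 genes. That background depended on the setting, with 1095 genes called with no filter, 1876 with DESeq2, 2196 with the replicate block, 3097 with all 22 libraries in 1 fit, 487 without replicate 2 of both ages and 0 to 387 with 1 library left out. Macrophage genes summed to 4163 to 10237 CPM in aged and 2026 to 4048 CPM in young capsule without overlap, and fibroblast genes overlapped at 8275 to 12131 CPM in aged and 8150 to 13451 CPM in young capsule. Aged and young RCAMs and aged and young tissue share no libraries. Whether the age difference differs between RCAMs and tissue was not tested, because the RCAM side chose the set.

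**Figure D5:**
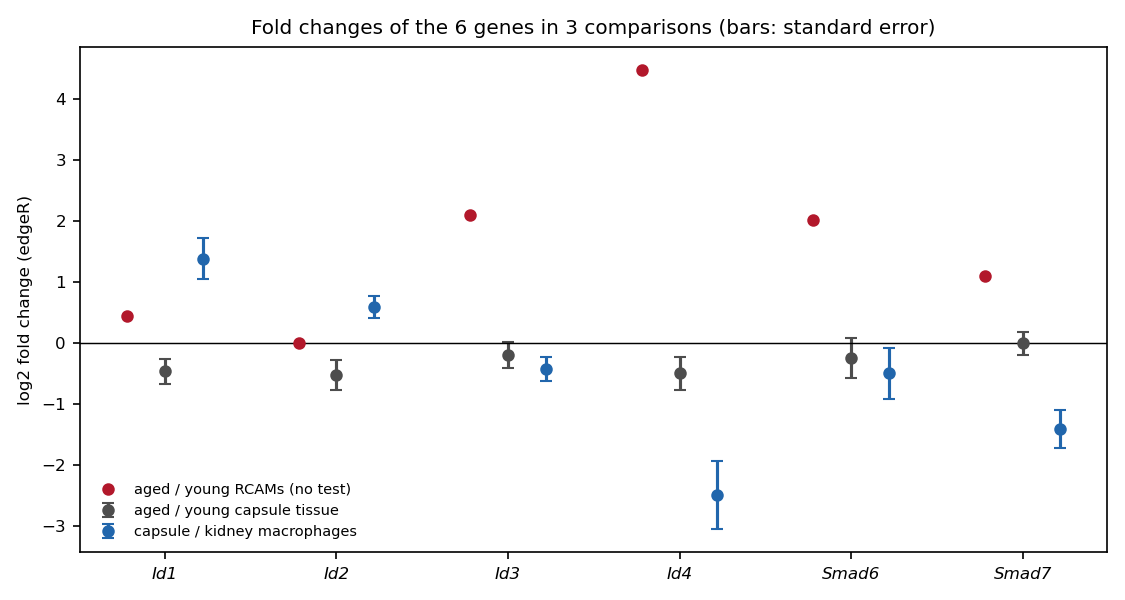
Log2 fold change of the 6 genes for aged over young RCAMs (no error bar, since this contrast chose the set), aged over young capsule tissue, and capsule over kidney macrophages; bars are standard errors. Tissue values lay between -0.52 and 0.00, and macrophage site values from -2.49 for Id4 to 1.39 for Id1.

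Ordered by level over all 6 groups, Id3 was highest in capsule tissue, at 139 ± 6.22 CPM in aged and 148 ± 40.7 CPM in young capsule, which overlapped. Aged RCAMs followed at 30.2 CPM, then kidney macrophages at 20.5 ± 1.46 CPM, capsule macrophages at 13.3 ± 3.64 CPM and young RCAMs at 6.86 CPM, each of them with no overlap with the next. The places of aged and young RCAMs in this order use the values that chose the set. Smad7 had tissue at the top, then kidney macrophages at 9.67 ± 1.65 CPM, apart from all others, and then aged RCAMs, capsule macrophages and young RCAMs, each overlapping the next. Id4 had kidney macrophages, 1.43 ± 0.321 CPM, and aged RCAMs, 0.929 ± 0.172 CPM, overlapping below tissue, and capsule macrophages and young RCAMs overlapping at the bottom. For Smad6 and Id1 the 4 groups below tissue formed a chain in which each overlapped the next. Id2 showed the other order, with capsule macrophages highest at 138 ± 36.1 CPM and aged capsule lowest at 64.7 ± 18.2 CPM, and every neighbour in its order overlapped.

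Over the 22 libraries, the genes most like Id3 by Pearson's r of log2 CPM were Fhl2 (0.974), Vstm4 (0.972), Ackr3 (0.968), Cttn (0.968) and Sod3 (0.966), of 19485 genes compared. Vstm4 was also among the genes most like Id4 (0.967), after P3h3 (0.972), with Igfbp7 at 0.963. Smad6 was most like Adcy5 (0.956) and Col4a2 (0.956), followed by Tgfbr3 (0.943), and Smad7 was most like Mal2 (0.967). Id1 was most like Ssbp3 (0.972), and Id2 like Tmem238 (0.839). Among the 6 genes, r was 0.94 for Id3 with Id4, 0.94 for Id3 with Smad6 and 0.83 for Id3 with Smad7, while Id2 had r of -0.38 to -0.51 with the other 5. These r values are descriptions over libraries that share sample type and kit.

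The pathway around the 6 genes was described by 7 lists. In RCAMs, 55 of 74 listed genes were tested between the ages, and 6 passed the threshold, all 6 higher in aged RCAMs, beside 3.43% of all genes higher and 1.38% lower. DESeq2 called 15 of them and limma-voom 7, and 21 had an unadjusted p under 0.05 by edgeR, all of them higher in aged RCAMs. Nothing is read from these counts, since the contrast chose the set. The 6 called by edgeR were Hes1, a Notch and BMP target (8.63 ± 2.43 CPM in aged and 1.89 ± 0.848 CPM in young RCAMs), the BMP-binding Bmper (37.3 ± 9.43 CPM in aged and 13.0 ± 4.26 CPM in young) and Fstl1 (49.7 ± 27.4 CPM in aged and 14.1 ± 3.93 CPM in young). The other 3 were Tgfbr3, the TGF-beta co-receptor (34.8 ± 8.01 CPM in aged and 11.9 ± 2.63 CPM in young RCAMs), and the SMAD corepressors Skil (62.2 ± 3.69 CPM in aged and 35.6 ± 10.3 CPM in young) and Tgif1 (53.0 ± 5.38 CPM in aged and 38.1 ± 4.41 CPM in young). The median log2 fold change was 1.24 over the 8 other BMP response genes tested, 0.78 over 10 secreted antagonists, 0.61 over 12 TGF-beta genes and 0.72 over 5 ligands, against -0.01 over all genes. It was 0.11 over 8 receptors, -0.09 over 7 SMAD transducers and ligases and -0.13 over 5 E proteins and partners. Nothing is read from these medians either. Some genes in them passed the filter on low counts only through the aged libraries, such as Msx1 (1.37 CPM in aged, 0.0552 CPM in young RCAMs). Of the genes called by edgeR, Fstl1 (486 CPM), Bmper (90.0) and Tgfbr3 (223) were higher in aged tissue than in kidney macrophages (1.63, 0.357 and 14.6). Hes1, Skil and Tgif1 were not. Fibroblast sums were higher in the same aged RCAM libraries, as given above. The part of other cell types in the called pathway genes was not tested.

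Among ligands in RCAMs, Bmp2 had the most counts, at 73.4 ± 15.4 CPM in aged and 49.9 ± 12.3 CPM in young RCAMs, and did not pass the threshold between the ages. Bmp2 was higher in RCAMs than in tissue at both ages, with a log2 fold change of 3.31 ± 0.21 in aged samples (adjusted p = 4.45e-06) and 3.04 ± 0.22 in young samples (adjusted p = 6.52e-06; edgeR). The signal transducer Smad1 was higher as well, by 1.83 ± 0.14 in aged (adjusted p = 9.66e-06) and 2.03 ± 0.13 in young samples (adjusted p = 3.64e-06). The receptors Bmpr1a and Bmpr2 were lower in RCAMs, at -3.08 ± 0.24 and -3.37 ± 0.20 in aged (adjusted p = 1.11e-05 for Bmpr1a and 3.35e-06 for Bmpr2) and -2.67 ± 0.14 and -3.04 ± 0.29 in young samples (adjusted p = 1.68e-06 for Bmpr1a and 2.83e-05 for Bmpr2). Acvrl1, the type I receptor best known from endothelium and named after its values were seen, was higher, by 0.80 ± 0.21 in aged (adjusted p = 0.00866) and 0.98 ± 0.13 in young samples (adjusted p = 0.000213). Of the antagonists, 11 of 11 tested were lower in aged RCAMs and 10 of 11 in young RCAMs than in tissue. Among them Nog (0.0554 CPM in aged RCAMs, 0.772 CPM in aged tissue) passed the filter on low counts only through tissue, so it had to differ. Over all 7 lists, 16 genes were higher and 43 lower of 66 tested in aged RCAMs, beside 32.2% of all genes higher and 38.5% lower. In young RCAMs 13 were higher and 42 lower of 65 tested, beside 35.2% of all genes higher and 40.6% lower. The lower counts at both ages are in part fixed by the filter. They include genes that passed it only through tissue, such as Rgmb, at 0 counts in RCAMs of both ages. Aged and young comparisons with tissue share no libraries with each other, but the RCAM libraries in them are those of the age contrast.

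Between macrophages of the 2 sites, 18 of 53 tested pathway genes were higher and 20 lower in capsule macrophages, beside 27.3% of all genes higher and 28.2% lower. The ligand Bmp2 was higher, at 65.0 ± 20.4 CPM in capsule and 8.33 ± 0.852 CPM in kidney macrophages (log2 fold change 3.18 ± 0.23, adjusted p = 1.28e-06), while Bmp6 (-2.34 ± 0.72, adjusted p = 0.0177) and Bmp7 (-1.92 ± 0.46, adjusted p = 0.00465) were lower. Of 8 receptors, 2 were higher, Bmpr1a (1.60 ± 0.28, adjusted p = 0.00062) and Eng (0.66 ± 0.12, adjusted p = 0.000917), and 6 lower. Smad1 was lower in capsule macrophages (-0.45 ± 0.10, adjusted p = 0.00227), as were the response gene Hes1 (-1.62 ± 0.19, adjusted p = 4.4e-05) and Runx2 (-1.89 ± 0.43, adjusted p = 0.00339). Tgfbr1, the type I TGF-beta receptor, stood at 58.6 ± 12.7 CPM in capsule and 1180 ± 191 CPM in kidney macrophages (-4.11 ± 0.17, adjusted p = 3.12e-08). Secreted antagonists had a median log2 fold change of 3.35 with 6 of 10 higher, among them Nbl1 (5.14 ± 0.28, adjusted p = 2.05e-07), beside the fibroblast sums given above. Among the 10, Chrdl1 (5.81 CPM in capsule, 0.0917 CPM in kidney macrophages) passed the filter on low counts only through capsule macrophages, so it had to differ. Of 5 E proteins and partners, which Id proteins bind or affect, 4 were higher, among them Tcf4 at 238 ± 14.7 CPM in capsule and 162 ± 16.1 CPM in kidney macrophages (0.76 ± 0.09, adjusted p = 3.67e-05).

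In capsule tissue, 65 of the listed pathway genes were tested between the ages and 0 passed by edgeR. At an unadjusted p under 0.05 there were 5 higher and 1 lower. By limma-voom 0 passed, and by DESeq2 2 genes in the higher direction and 1 in the lower. The smallest adjusted p were those of Tgfb1, at 70.6 ± 13.1 CPM in aged and 35.6 ± 6.23 CPM in young capsule (log2 fold change 0.87 ± 0.21, edgeR adjusted p = 0.0907), and of the ligand Gdf5 (-3.04 ± 0.74, adjusted p = 0.0922). Medians of the 7 lists lay between -0.10 and 0.37, against 0.03 over all genes.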

How the data were processed

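RNA was measured by bulk sequencing in 22 mouse libraries grouped by their titles. The labels name an RNeasy Micro extraction, single-end reads of 50 bp and about 30 M (1e6) reads per sample. The deposited files give raw integer read counts for 52636 genes. The build is GRCm38 per the submitters' processing notes. For the aligner, the counter and strand use, the entry is: not given in the sources used here. Symbols and exon lengths came from GENCODE M21, in which 52403 identifiers were found. The RPKM and width columns were not used.

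Counts were tested with the quasi-likelihood F test of edgeR 4.0.16 in R 4.3.3, 2-sided, after TMM scaling and filterByExpr (minimum count 10), each fit holding the 2 groups compared. P-values were adjusted by Benjamini and Hochberg's method across every gene tested, with calls at 0.05. Printed levels are plain CPM of the library total over all genes, so a ratio of means can differ slightly from the fitted, TMM-scaled fold change. Standard errors were computed as the absolute log2 fold change over the square root of F. The procedure was tested on simulated data. Alternatives were DESeq2 1.42.0, limma 3.58.1 (voom), other scalings and filters, all 22 libraries in 1 fit, a replicate block, and leaving out libraries. The 6 genes and the lists were chosen with earlier results of these data known, and the contrast of aged with young RCAMs was not tested for the 6 genes. Named genes were the 6, up to 4 of smallest p per pathway list and comparison, up to 3 of highest level per marker list, and those of highest r with each of the 6 genes.

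The labels do not tie a replicate number to any shared animal, litter or day. Deviations from group means correlated between same-numbered libraries at r = 0.0986 to 0.353 in capsule tissue, against -0.306 to 0.0382 between libraries of different number. There 6 of 6 libraries correlated best with their own number, a link that the labels do not explain. In the other comparisons same-numbered libraries had r of -0.108 to 0.0571. The main fits did not use the numbers, in tissue either, and the replicate block was run as an alternative. The precision of low levels is limited by depth: 3 counts are worth 0.0551 to 0.146 CPM, depending on the library.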

Additional observations from a re-analysis of the deposited data

Results flagged for a closer look

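Smad7 in young RCAM replicate 1, at 2.57 CPM, lay far from the 3 other young RCAM libraries, at 1.40 to 1.47 CPM. The gap to its nearest neighbour was 0.940 of the range of the group, above Dixon's 95% critical value for 4 samples. Of 24 groups of 4 libraries checked over the 6 genes this was the 1 that passed, and chance passes about 1 in 20. The same library held 6 of the 8 Id4 counts in young RCAMs. Without it the log2 fold change of Smad7 between aged and young RCAMs was 1.40 in place of 1.10.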

How the results depend on the processing

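Of 459 values of the 6 genes under alternatives, 443 were counted as unchanged. In the tested comparisons this meant the same direction and side of the threshold. Between RCAM ages, with no test, it meant a log2 fold change within the pooled SD of the libraries, whatever its sign. Id2 there (0.01) stood at -0.17 to 0.16 with 1 library left out. In the tested comparisons 0 values lost a call, 3 gained one and 12 changed sign. All 12 were in capsule tissue, where none of the 6 genes was called. In capsule tissue Smad7 (0.00) stood at -0.01 with RLE size factors, DESeq2 or limma-voom, -0.03 with scaling free of immunoglobulin, mitochondrial and haemoglobin genes, -0.02 with no filter, 0.00 with the replicate block and -0.04 to 0.09 with libraries left out. Smad6 stood at 0.17 without replicate 2 of both ages, and with 1 library left out at -0.47 to 0.09, while Id3 stood at -0.31 to 0.02. The 3 gained calls were Id3 between macrophages (-0.53 and -0.54) and Id2 between young RCAMs and tissue (0.59), and Id4 between RCAM ages moved to 5.89, as given above. Under the stricter filter Id4 was not tested between macrophages or between RCAM ages. Calls over all genes in capsule tissue, 39, were 1095 with no filter, 1876 with DESeq2, 25 with limma-voom, 3097 with all 22 libraries in 1 fit, 2196 with the replicate block, 487 without replicate 2 of both ages, and 0 to 387 with 1 library left out. The 0 came without aged or without young replicate 1, where 2352 and 2828 genes had an unadjusted p under 0.05. Calls between aged and young RCAMs, 729, were 1441 with DESeq2, 336 with the replicate block and 451 to 629 with 1 library left out, lowest without young (451) or aged (454) replicate 4. The cause was not tested. The block added or removed no call of the 6 genes. In capsule tissue 6 of 6 libraries correlated best with the library of their own number.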
